A study of Sus scrofa with 10 samples.

Results

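The genes followed here are those that code for the scaffold of the sarcomere in pig muscle: the thin filament apart from the troponins, the accessory proteins of the thick filament and the M-band, the Z-disc, and the chaperones and turnover factors that serve them. Members were taken from a list of 43 gene symbols matched to the Ensembl identifiers of the deposited table, which holds 25880 genes. Of the 43, 38 were matched, and TPM3, TTN, LDB3, MYOZ2 and KLHL41 were not analysed here. One listed gene, ADORA1, codes for an adenosine receptor and no part of the sarcomere, and its exons overlap those of MYBPH on the other strand. The samples were longissimus lumborum, a loin muscle, from 5 Alentejano (AL) and 5 Bisaro (BI) pigs, 2 Portuguese breeds. All 10 animals were purebred castrated males, reared in a free-range system on commercial feed and slaughtered at about 150 kg, and their ages were not given in the sources used here. RNA came from whole muscle pieces, so a value averages over slow and fast fibres and over every other cell in the piece, and fewer fibres of a type cannot be told apart from less RNA per fibre.

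The sarcomere is the repeating unit of the myofibril. Thin filaments of actin, tropomyosin and nebulin are anchored in the Z-disc by α-actinin and its partners, thick filaments of myosin are held in register at the M-band by the myomesins, and titin spans from one to the other. Several of these proteins have forms that prevail in slow or in fast fibres, and pig loin is a muscle in which fast fibres prevail. The Z-disc also carries proteins that respond to load and damage, such as TCAP, the Xin proteins and filamin C.

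Values are normalised counts, that is, read counts per gene after division by a size factor for each pig, and a value of 1 stands for about 1 read. Reads on genes numbered 2298045 to 3343194 per pig, the 10 highest genes of each pig took 48.5 to 60.3% of them, and 3 reads corresponded to 2.47 to 3.39 normalised counts, a limit that covers counting error only. All 6 skeletal muscle markers present in the table passed the minimum below. The AL values below are in the order AL44, AL46, AL49, AL52 and AL63, and the BI values in the order BI25, BI34, BI36, BI37 and BI42. Differences are log2 fold changes of AL over BI on the log2(normalised count + 1) scale, from limma, with p-values adjusted by Benjamini-Hochberg over the 1513 genes whose mean was at least 50 in each breed. This minimum left 21 of the 38 members for testing.

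The libraries were described as stranded, but the strand setting of the counting was not given in the sources used here. It is therefore not known whether the reads assigned to a gene came from its own strand. They may have come from the other strand, where another gene may overlap it. The doubt reaches every gene, as the mitochondrial genes show. All protein-coding genes of the mitochondrion but ND6 lie on one strand, and their mRNAs are among the most abundant of muscle. Per kilobase, ND6 had 99664 normalised counts on average over the 10 pigs, whereas the 12 genes of the other strand had 76.3 to 1436. Of the 20 highest genes with a RefSeq position, 19 had a gene of the opposite strand that overlapped them or lay within 5 kb, beside 61.4% of the 10621 such genes with a read. ACTA1, whose mRNA is among the most abundant of skeletal muscle, took 0.232 to 0.646% of the reads. If reads were counted on the strand opposite to the mRNA, the values of all members, also of those with no neighbour such as ACTA1, TPM1 and DES, are residual reads and not levels of their mRNA. The reads themselves were not analysed here, so the values below are to be read as reads assigned to a gene, and a difference between the breeds, or its absence, may not be that of the mRNA.

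No tested member differed between the breeds at an adjusted p under 0.05. The count was 0 of 21 with limma, where 0 of the 1513 genes were called (0%), 0 of 21 with edgeR (0% of all genes) and 0 of 21 with DESeq2, which called 1.06% of the same genes. At an unadjusted limma p under 0.05 there were 2 members, TCAP lower and XIRP1 higher in AL, 9.52% of the 21, beside 7.4% of all genes tested, and edgeR and DESeq2 each gave the same 2 members. In no tested member were the 5 AL and the 5 BI values free of overlap, beside 1.45% of all genes. Of the 21, 8 had a positive and 13 a negative log2 fold change, and the median was -0.06, beside -0.05 over all 1513 genes, of which 635 were positive. With the minimum lowered to 50 summed over the 5 pigs of either breed, 34 members were among 3807 genes and 0 were called, beside 0.0263% of all genes with limma and 1.44% with DESeq2.

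**Figure D1:**
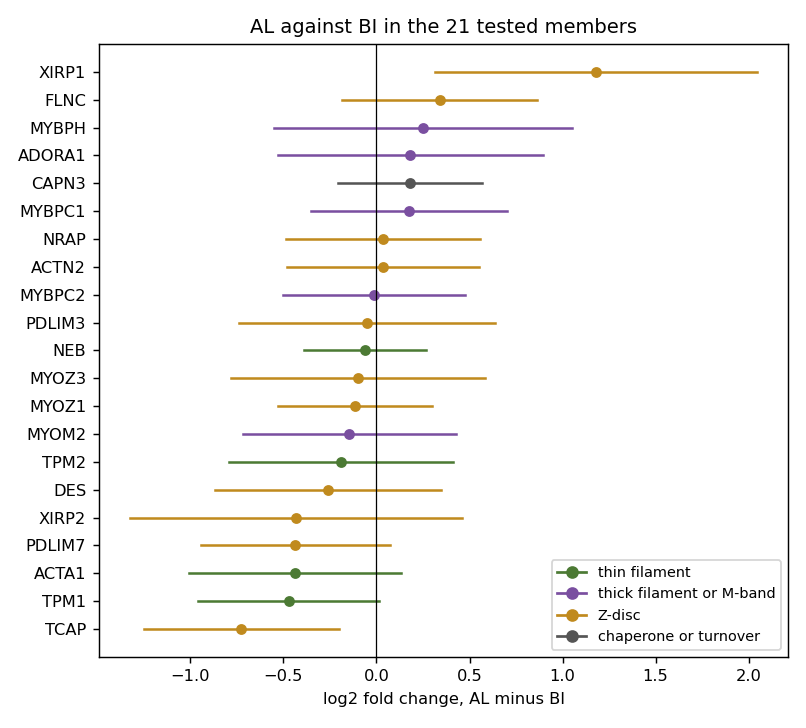
Log2 fold change of AL over BI (x axis) for each of the 21 tested members (y axis), with points for the limma estimate, bars for its 95% confidence interval and colours for the role of the gene. The intervals of TCAP and XIRP1 leave out 0 before adjustment for the number of genes, and the other 19 include it.

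The region upstream of the RefSeq gene start is shown for 3 members: ACTA1, the highest of them per kilobase, and XIRP1 and TPM1, which were among the 3 with the lowest p-values. This start is the outer edge of the annotated gene and was not checked against the transcription start used in muscle. Each run is the 150 bases before the RefSeq gene start in Sscrofa11.1, written 5′ to 3′ on the strand of the gene, for ACTA1 at chr14:60412501-60412650, plus strand, for XIRP1 at chr13:23876851-23877000, minus strand and for TPM1 at chr1:109016091-109016240, minus strand. Capitals mark E-boxes (CANNTG, the letters bound by myogenic basic helix-loop-helix factors) and, in XIRP1 alone of these, the further match to the MEF2 site that lies 109 to 100 bases before the start.
ACTA1: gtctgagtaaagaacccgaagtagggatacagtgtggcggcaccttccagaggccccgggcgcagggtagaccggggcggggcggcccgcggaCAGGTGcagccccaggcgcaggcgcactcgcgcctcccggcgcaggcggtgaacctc
XIRP1: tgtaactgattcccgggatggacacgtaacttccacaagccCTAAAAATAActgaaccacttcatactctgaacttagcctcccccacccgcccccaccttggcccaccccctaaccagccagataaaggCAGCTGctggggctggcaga
TPM1: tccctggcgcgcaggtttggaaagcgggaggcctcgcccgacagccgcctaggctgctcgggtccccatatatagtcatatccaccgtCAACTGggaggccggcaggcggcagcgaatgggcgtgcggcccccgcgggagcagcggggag
In the 250 bases before the start, searched on both strands, an E-box was found in 34 of the 42 members with a position (81.0%), beside 61.9% of 19531 protein-coding genes. A MEF2 site was found in 7 of the 42 (16.7%), beside 2.55% of all genes, and of the tested members XIRP1 alone held one. The TATA box (TATAAA) occurred in 4 members (9.52%, beside 9.76%), the M-CAT motif (CATTCC) in 2 (4.76%, beside 10.3%) and the CArG box, the site of serum response factor, in 2 (4.76%, beside 1.31%). A match is a run of letters and not a measured binding site.

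Levels ranged widely among the members. Per kilobase of RefSeq exon, the mean normalised count over the 10 pigs was 6622 for ACTA1, 4192 for ADORA1, 713 for TPM2, 547 for DES and 505 for MYBPC2. It was 27.8 for NEB, whose exons are long, and under 10 for MYOM1, MYOM3, MYPN, XIRP2 and SMYD1, among others. The 38 members together took 1.42 to 2.86% of the reads on genes, of which ADORA1 made up 0.334 to 1.77 percentage points. ANKRD23 had 0 reads in all 10 pigs.

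**Figure D2:**
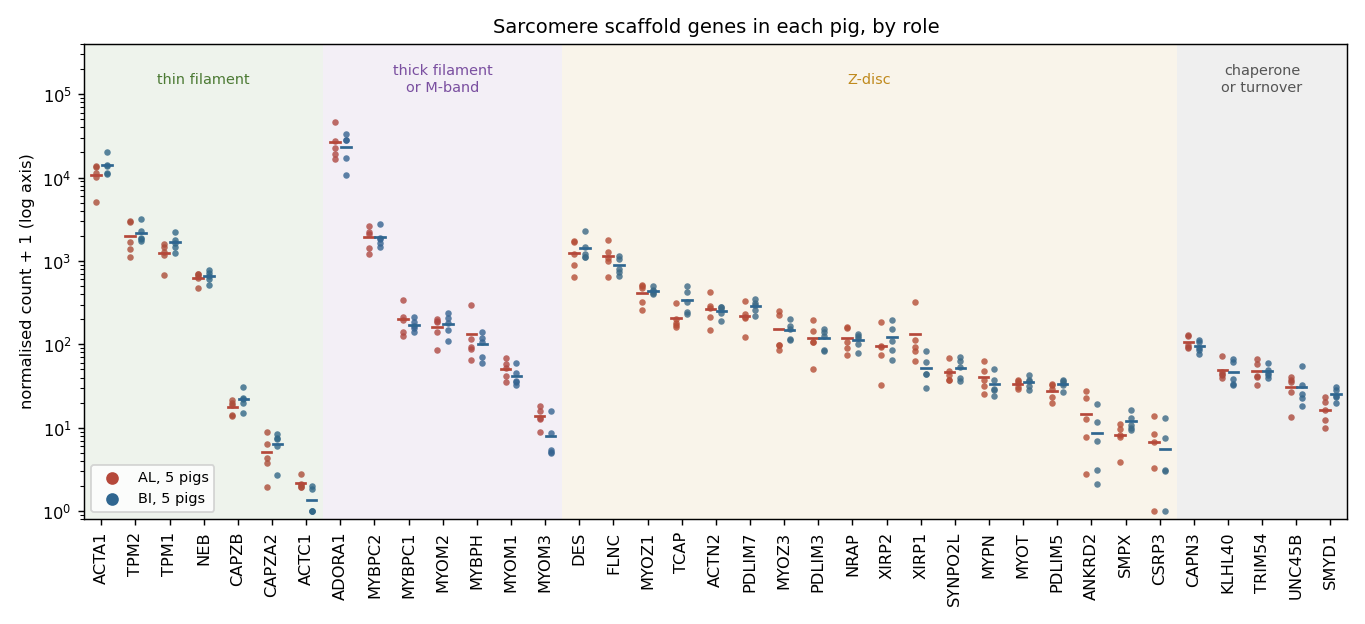
Normalised count plus 1 (y axis, log scale) of the members with at least 1 read (x axis), grouped by role and ordered by mean, with 1 point per pig and a short line at the mean of each breed. The 2 breeds overlap in every tested member, and ADORA1 and ACTA1 have the highest counts, which are not corrected for gene length.

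In the thin filament, the 4 tested members had log2 fold changes below 0, from -0.47 to -0.06 (median -0.31), and 0 of 4 were called. The sign of NEB turned when AL44 or BI42 was left out (0.039 and 0.0059), while those of ACTA1, TPM1 and TPM2 held in every alternative. Without AL44, however, they were close to or nearer 0, at -0.18 for ACTA1, -0.27 for TPM1 and -0.0024 for TPM2. The median of the 4 was then -0.09. ACTA1, the skeletal α-actin that makes up the thin filament itself (ENSSSCG00000010190, chromosome 14 from 60412651 to 60415687, plus strand), had normalised counts of 5039, 13832, 10229.7, 11448 and 13525 in the AL pigs and 13975, 20532, 10997, 11489.8 and 13897 in the BI pigs. AL44 was the lowest pig and BI34 the highest, and the other 8 pigs of both breeds lay between 10229.7 and 13975. The means were 10815 ± 3555 (SD, n = 5) for the AL pigs and 14178 ± 3802 (SD, n = 5) for the BI pigs, and the log2 fold change was -0.44 (standard error 0.26, 95% confidence interval -1.01 to 0.13, limma adjusted p = 0.731).

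TPM2, β-tropomyosin, which lies along the actin filament and carries the troponins (ENSSSCG00000005316, chromosome 1 from 236402249 to 236410390, minus strand), had 1106, 2905, 1372, 1694 and 2994 in the AL pigs and 1862, 3229, 1711, 1855 and 2266 in the BI pigs. AL46, AL63 and BI34 were high and AL44 was low, so that both breeds spanned much of the same range. Its log2 fold change was -0.19 (standard error 0.28, 95% confidence interval -0.79 to 0.41, limma adjusted p = 0.894). TPM1, α-tropomyosin, the form typical of fast fibres (ENSSSCG00000004570, chromosome 1 from 108986981 to 109016090, minus strand), had 673, 1614, 1273, 1461 and 1168 in the AL pigs and 1779, 2238, 1462, 1259.7 and 1655 in the BI pigs. AL44 and AL63 lay below all BI pigs, and BI25, BI34 and BI42 lay above all AL pigs. The means were 1238 ± 359 (SD, n = 5) for the AL pigs and 1679 ± 369 (SD, n = 5) for the BI pigs, the log2 fold change was -0.47 (standard error 0.23, 95% confidence interval -0.96 to 0.01, limma adjusted p = 0.654), and exact permutation of the breed labels (two-sided) gave p = 0.0873.

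NEB, nebulin, which runs along the thin filament, was the steadiest of the 4, with 470.2 in the lowest pig and 776 in the highest and a log2 fold change of -0.06 (limma adjusted p = 0.951). Of the capping proteins, which close the barbed end of actin in the Z-disc, CAPZB had 12.9 to 29.6 and CAPZA2 0.944 to 8.0, both under the minimum for testing. ACTC1, the cardiac α-actin that fetal muscle also makes, had 0.944, 0.930, 1.08, 1.78 and 1.13 in the AL pigs and 0.824, 0, 0, 1.0 and 0 in the BI pigs. These are 0 to 2 reads per pig, under the 3-read limit, and no fold change is given.

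The thick filament and M-band group gave 5 tested genes, 3 with positive and 2 with negative log2 fold changes (median 0.17), and 0 of 5 were called. The 3 positive genes were MYBPC1, MYBPH and ADORA1. ADORA1 is no accessory protein of the thick filament, and its exons overlap those of MYBPH, so these counts are not of separate sarcomere genes. MYBPC2, the fast form of myosin-binding protein C (ENSSSCG00000003218, chromosome 6 from 55281991 to 55310184, plus strand), had 1207, 2251, 1426, 2109.8 and 2656 in the AL pigs and 1661, 2755, 1473, 1819 and 1871 in the BI pigs. AL44 and AL49 were the lowest and BI34 and AL63 the highest, and the breed means of 1930.0 and 1916 were close, with a log2 fold change of -0.02 (standard error 0.23, 95% confidence interval -0.50 to 0.47, limma adjusted p = 0.981). MYBPC1, the slow form (ENSSSCG00000000866, chromosome 5 from 82557975 to 82651237, minus strand), had 142, 125, 196, 211 and 339 in the AL pigs and 155, 214, 138, 182 and 164 in the BI pigs. AL63 stood highest and AL46 lowest, with all 5 BI pigs between them, and the log2 fold change was 0.17 (standard error 0.24, 95% confidence interval -0.35 to 0.70, limma adjusted p = 0.891). Without AL63 it was -0.034.

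MYBPH, myosin-binding protein H (ENSSSCG00000030681, chromosome 9 from 113872439 to 113884544, minus strand), is overlapped by ADORA1 (ENSSSCG00000021059, chromosome 9 from 113835279 to 113875899, plus strand). The genes share 2007 exonic bases, which is 38.4% of the exonic bases of MYBPH and 33.8% of those of ADORA1, and none of the shared bases is coding in ADORA1, while 341 are coding in MYBPH. MYBPH had 86.9, 295, 114, 64 and 92.7 in the AL pigs and 119, 58.4, 141, 70.2 and 107 in the BI pigs. ADORA1 had 19243, 46120.4, 27386, 16524 and 22629 in the AL pigs and 28119, 10606, 32919.9, 17320.4 and 28410.2 in the BI pigs. AL46 was the highest and BI34 the lowest of the 10 pigs for both genes. Per kilobase, ADORA1 was 191 times as high as MYBPH on average, and the ratio of their counts in a pig ran from 157 to 266.

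Across the 10 pigs, the log2 values of MYBPH and ADORA1 had Pearson r = 0.935 (permutation p = 0.0001, Benjamini-Hochberg adjusted over 4 overlapping pairs 0.0004) and Spearman rho = 0.964 (permutation p = 4e-05, adjusted 0.00016). Without AL46 and BI34, the 2 pigs farthest from the median of MYBPH, r was 0.977, and with each breed centred on its own mean it was 0.934. Neither gene was called between the breeds, and the log2 fold change was 0.25 (standard error 0.37, 95% confidence interval -0.55 to 1.05, limma adjusted p = 0.896) for MYBPH and 0.18 (standard error 0.33, 95% confidence interval -0.53 to 0.89, limma adjusted p = 0.918) for ADORA1. Without AL46 the signs turned, to -0.098 and -0.044.

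Of the other pairs with shared exons, 2 had lower coefficients. NRAP shares 371 exonic bases with HABP2, which had 118 times its level per kilobase (Pearson r = 0.651, permutation p = 0.041, adjusted 0.0821; Spearman rho = 0.576, permutation p = 0.0886, adjusted 0.168; r = 0.628 without AL44 and BI25 and 0.659 within breeds). KLHL40 shares 758 exonic bases with HHATL, which had 101 times its level per kilobase (r = 0.515, permutation p = 0.128, adjusted 0.17; rho = 0.479, permutation p = 0.168, adjusted 0.168; 0.524 within breeds). That last relation rests on AL49 and BI36, without which r was -0.081.

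**Figure D3:**
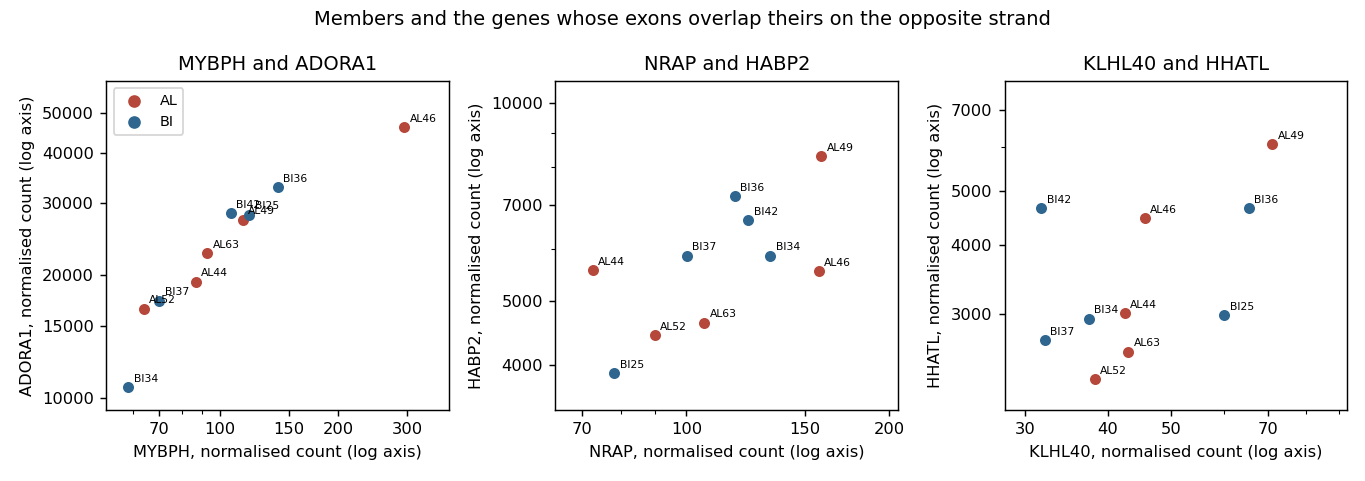
Normalised counts of 3 members (x axes, log scale) and of the gene whose exons overlap theirs on the opposite strand (y axes, log scale), with 1 point per pig coloured by breed. MYBPH and ADORA1 rise together from BI34 to AL46, and the points of the other 2 pairs are scattered.

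The myomesins tie the thick filaments together at the M-band. MYOM2 had 84 to 235 and a log2 fold change of -0.15 (limma adjusted p = 0.918). MYOM1 and MYOM3 were under the minimum. MYOM3 had 12.7 ± 3.37 (SD, n = 5) for the AL pigs and 7.02 ± 4.62 (SD, n = 5) for the BI pigs, and over the 3807 genes of the lower minimum its log2 fold change was 0.90 (standard error 0.39, 95% confidence interval 0.07 to 1.73, limma adjusted p = 0.488), with an unadjusted p of 0.0359, where 9.4% of all genes had one under 0.05. It rested on 4 to 18 reads per pig, and DESeq2 on the same genes gave it no p under 0.05.

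The Z-disc was the largest group, with 19 members in the table and 11 tested, of which 4 were positive and 7 negative (median -0.10) and 0 were called. Both members with an unadjusted p under 0.05 belonged to it. TCAP, telethonin, which caps the ends of titin in the Z-disc (ENSSSCG00000017500, chromosome 12 from 22651666 to 22652904, minus strand), had 202, 310.5, 170.5, 181 and 158 in the AL pigs and 242, 322, 429, 233 and 494 in the BI pigs. In AL, AL46 stood apart at 310.5 and the other 4 pigs, at 158 to 202, lay below all BI pigs, whose lowest was BI37. The means were 205 ± 61.4 (SD, n = 5) for the AL pigs and 344 ± 115 (SD, n = 5) for the BI pigs, with a log2 fold change of -0.73 (standard error 0.24, 95% confidence interval -1.25 to -0.20, limma adjusted p = 0.381). The exact two-sided permutation test gave p = 0.0476, and the unadjusted limma p was 0.0106. Its sign held in every alternative, with adjusted p from 0.162 to 0.765, and without AL46 the breeds did not overlap, as in 2.25% of all genes.

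XIRP1, one of the Xin actin-binding repeat proteins, which gather at sites of myofibril remodelling (ENSSSCG00000034015, chromosome 13 from 23867476 to 23876850, minus strand), had 62.3, 319.8, 83.1, 112 and 91.6 in the AL pigs and 43.7, 28.6, 82.8, 43.1 and 60.2 in the BI pigs. AL46 was far above the rest, and AL49, AL52 and AL63 were also above all BI pigs, while AL44 fell between BI42 and BI36. The means were 134 ± 106 (SD, n = 5) for the AL pigs and 51.7 ± 20.7 (SD, n = 5) for the BI pigs, with a log2 fold change of 1.18 (standard error 0.40, 95% confidence interval 0.31 to 2.05, limma adjusted p = 0.381). The exact two-sided permutation test gave p = 0.0159, and the unadjusted limma p was 0.0114. Without AL46 the log2 fold change was 0.80, the smallest of the values with a pig left out, and adjusted p ran from 0.0797 to 0.616 over the alternatives. The breeds did not overlap without AL44 (as in 3.83% of all genes) or without BI36 (2.12%).

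**Figure D4:**
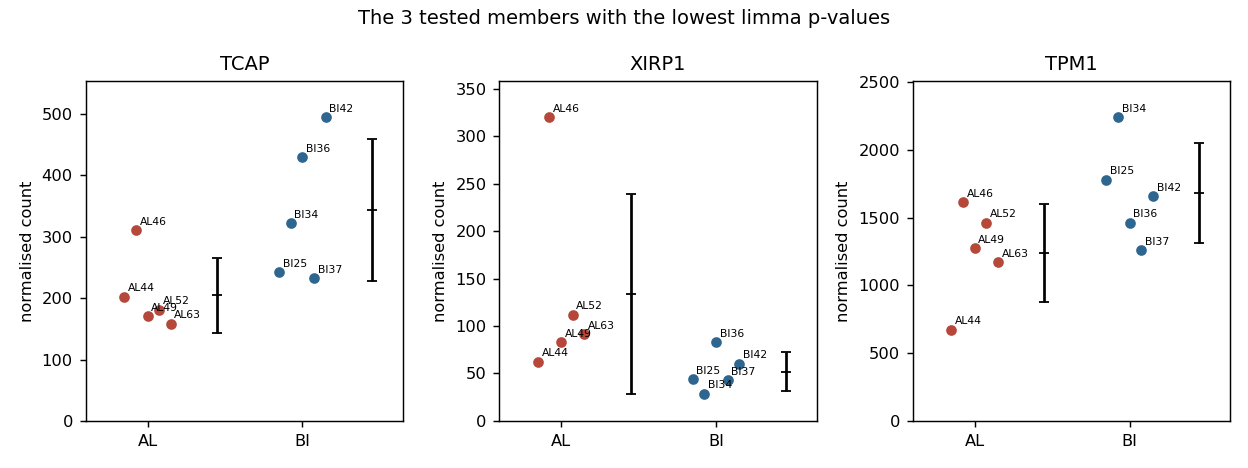
Normalised counts (y axes, from 0) of TCAP, XIRP1 and TPM1 in the 5 AL and 5 BI pigs, with 1 labelled point per pig and, beside them, the mean with the SD as a bar. AL46 lies apart from the other AL pigs in TCAP and XIRP1, and AL44 is the lowest pig in TPM1.

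XIRP2, the other Xin protein, had 31.7 in AL63 to 196 in BI42, with a log2 fold change of -0.43 (standard error 0.41, 95% confidence interval -1.32 to 0.46, limma adjusted p = 0.849). FLNC, filamin C, which binds the Xin proteins at the Z-disc and the costamere (ENSSSCG00000016578, chromosome 18 from 19759734 to 19787616, minus strand), had 643, 1774, 1083, 993 and 1267 in the AL pigs and 740.5, 801, 1156, 665 and 1047 in the BI pigs. AL46 and AL63 lay above all BI pigs and AL44 below them, and the log2 fold change was 0.34 (standard error 0.24, 95% confidence interval -0.18 to 0.86, limma adjusted p = 0.776). Without AL44, FLNC had an unadjusted limma p under 0.05, as did 11.9% of all genes, and its adjusted p was 0.315. TPM1 and PDLIM7 had an unadjusted p under 0.05 without AL46, beside 7.14% of all genes. The same held for TPM1 without AL52 (7.87% of all genes) or BI37 (7.47%), and with scaling without the 10 highest genes (112 of 1513 genes). With no minimum count, 7 of 37 members had an unadjusted limma p under 0.05, beside 936 of 14681 genes. They were ACTA1, TPM1, MYOM3, TCAP, PDLIM7, XIRP1 and SMYD1. In that fit 0 of the 37 members were called, beside 40 of the 14681 genes.

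DES, desmin, the intermediate filament that links neighbouring Z-discs (ENSSSCG00000020785, chromosome 15 from 121428539 to 121435426, plus strand), had 643, 1730.0, 892, 1212 and 1684 in the AL pigs and 1104, 2272, 1106, 1228 and 1471 in the BI pigs. As in ACTA1, AL44 was the lowest pig and BI34 the highest, and the log2 fold change was -0.26 (standard error 0.28, 95% confidence interval -0.87 to 0.35, limma adjusted p = 0.856). ACTN2, the α-actinin of both fibre types that crosslinks actin in the Z-disc, had 148 to 421 with a log2 fold change of 0.04 (limma adjusted p = 0.971).

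The calsarcins bind α-actinin and calcineurin, and MYOZ1 and MYOZ3 are their fast forms. MYOZ1 (ENSSSCG00000010304, chromosome 14 from 76445109 to 76453014, minus strand) had 259.6, 521, 324, 475 and 506 in the AL pigs and 442, 493, 439, 403 and 408 in the BI pigs. The BI pigs kept within 403 to 493, while AL44 and AL49 lay below and AL46 and AL63 above all of them. MYOZ3 (ENSSSCG00000035729, chromosome 2 from 151635159 to 151650845, plus strand) had 85, 249, 97.1, 96.1 and 223 in the AL pigs and 110.4, 200.5, 165, 150.3 and 114 in the BI pigs, and the AL pigs again lay on both sides of the BI range. The log2 fold changes were -0.12 (standard error 0.19, 95% confidence interval -0.53 to 0.30, limma adjusted p = 0.908) for MYOZ1 and -0.10 (standard error 0.31, 95% confidence interval -0.78 to 0.58, limma adjusted p = 0.954) for MYOZ3.

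Of the PDZ and LIM domain proteins of the Z-disc, PDLIM7 had a log2 fold change of -0.44 (limma adjusted p = 0.699) and PDLIM3 of -0.05 (limma adjusted p = 0.971). NRAP, which is best known from growing myofibrils, had 0.04 (limma adjusted p = 0.971). PDLIM5, MYOT, MYPN and SYNPO2L were under the minimum, at means of 29.6, 33.4, 36.5 and 48.7, and over the genes of the lower minimum their log2 fold changes lay between -0.30 and 0.25, all with adjusted p of 0.712 or more.

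CSRP3 and ANKRD2, both typical of slow fibres, had low counts. CSRP3, the muscle LIM protein, had 5.66, 7.44, 12.9, 0 and 2.26 in the AL pigs and 6.59, 0, 12.1, 2.0 and 2.11 in the BI pigs, with AL52 and BI34 at 0 reads and AL49 and BI36 highest. ANKRD2, a stretch-responsive ankyrin repeat protein whose position was not matched by symbol (ENSSSCG00000010522), had 21.7, 27, 11.9, 1.78 and 6.79 in the AL pigs and 10.7, 1.10, 18.1, 6.01 and 2.11 in the BI pigs. AL46, AL44 and BI36 were high and BI34, AL52 and BI42 below the 3-read limit, and over the genes of the lower minimum the log2 fold change was 0.82 (standard error 0.69, 95% confidence interval -0.67 to 2.31, limma adjusted p = 0.761). SMPX, a small protein of the costamere on chromosome X, had 7.12 ± 2.76 (SD, n = 5) for the AL pigs and 11 ± 2.84 (SD, n = 5) for the BI pigs, with -0.62 (limma adjusted p = 0.631).

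Set side by side, the one tested member typical of slow fibres, MYBPC1, had 0.17, and the 4 tested members typical of fast fibres had -0.47 (TPM1), -0.12 (MYOZ1), -0.10 (MYOZ3) and -0.02 (MYBPC2), with 0 of 5 called. The signs of MYOZ3 and MYBPC2 turned with DESeq2 and edgeR (0.020 and 0.011), and those of MYOZ1, MYOZ3 and MYBPC2 when AL44 was left out. Beside these, the markers of slow fibres outside the group had log2 fold changes of 0.68 to 0.80 in the 4 that were tested. All 4 had an unadjusted limma p under 0.05, beside 7.4% of all genes tested, and 0 of 4 were called. Their summed level over 6 genes was 761 to 1449 in AL and 447 to 797 in BI. Over 8 markers of fast fibres the sum was 13635 to 24235 in AL and 20835 to 32148 in BI, with medians of 23660 and 22510. Of these, 7 were tested, 2 positive and 5 negative, from -0.47 (TNNT3) to 0.13 (ATP2A1). Only 1 of the 7, TNNT3, had an unadjusted limma p under 0.05, beside the same 7.4% of all genes tested, and 0 were called. The part of fibre composition in the members' values was not tested.

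The chaperones and turnover factors had 5 members in the table and 1 tested. CAPN3, the muscle calpain, a protease bound to titin (ENSSSCG00000004728, chromosome 1 from 128960117 to 129013508, minus strand), had 91.6, 130.1, 89.5, 97 and 126 in the AL pigs and 75.8, 106, 90.5, 112 and 84.5 in the BI pigs. The highest pig had 1.72 times the level of the lowest, AL46 and AL63 lay above all BI pigs, and the log2 fold change was 0.18 (standard error 0.18, 95% confidence interval -0.20 to 0.57, limma adjusted p = 0.849). KLHL40, which stabilises nebulin and leiomodin (ENSSSCG00000011286, chromosome 13 from 26202607 to 26211528, plus strand), had 42.5, 45.5, 71.2, 38.2 and 43 in the AL pigs and 60.1, 37.4, 65.5, 32.1 and 31.7 in the BI pigs. AL49 stood above the other AL pigs, BI25 and BI36 came next, and over the genes of the lower minimum the log2 fold change was 0.12 (standard error 0.26, 95% confidence interval -0.44 to 0.67, limma adjusted p = 0.922).

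SMYD1, a methyltransferase of muscle needed for thick filament assembly, had 15.5 ± 5.62 (SD, n = 5) for the AL pigs and 24.2 ± 4.17 (SD, n = 5) for the BI pigs, with 8 to 28 reads per pig. Over the genes of the lower minimum its log2 fold change was -0.66 (standard error 0.28, 95% confidence interval -1.26 to -0.06, limma adjusted p = 0.481), with an unadjusted p of 0.0337 by limma and none under 0.05 by DESeq2. UNC45B, the myosin chaperone, had 0.00 (limma adjusted p = 1) and TRIM54, a ubiquitin ligase of the myofibril, -0.03 (limma adjusted p = 0.972).

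Single pigs stood out across the members. AL44 was below the 10-pig mean in 21 of the 21 tested members and the lowest pig in 14, whereas it was the lowest in 15.8% of all genes tested. Its median deviation from the 10-pig mean on the log2 scale was -0.62 over the members and 0.04 over all genes. AL46 was the highest pig in 8 of the 21 and BI34 in 7, beside 8.26 and 15% of all genes. The 8 of AL46 included XIRP1, FLNC, MYBPH and ADORA1, and those of BI34 included ACTA1, TPM1, TPM2 and DES.

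**Figure D5:**
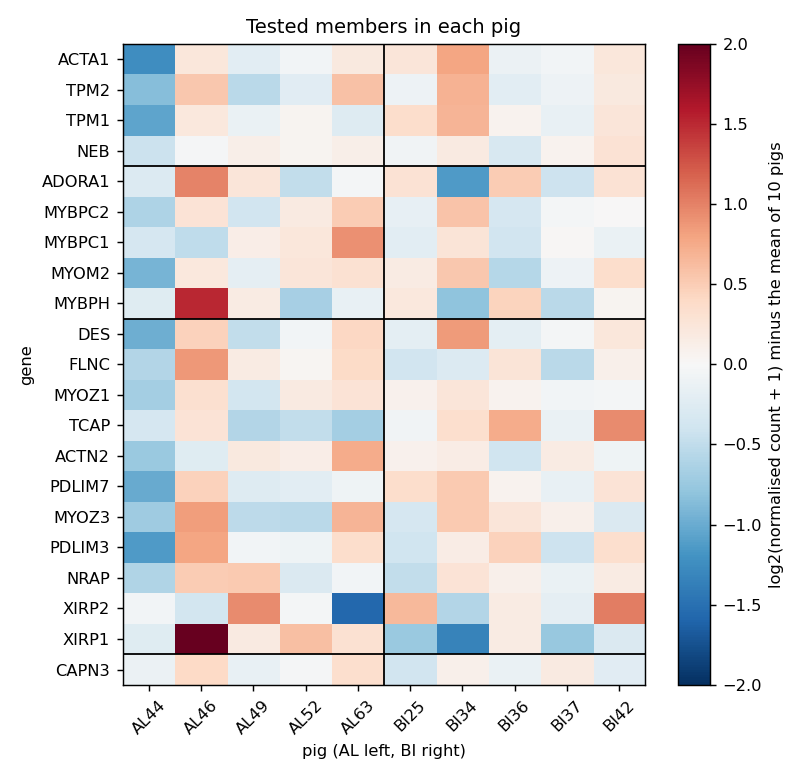
Log2(normalised count + 1) minus the mean of the 10 pigs (colour, from blue below to red above the mean) for the 21 tested members (rows, by role) in each pig (columns). AL44 is blue, in places faintly, in all 21 rows, while BI34 is red in the actin, tropomyosin and desmin rows and blue in ADORA1, MYBPH and XIRP1.

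Other muscle genes went both ways in AL44. The summed level of 5 skeletal muscle markers outside the group (CKM, MYL1, TNNT3, CASQ1 and PYGM) was 10482 in AL44 and 12319 to 24892 in the other 9 pigs, and that of 8 fast fibre markers was 13635 in AL44 and 16566 to 32148 in the others. Both sums hold TNNT3, MYL1 and CASQ1, so they are not separate observations. TNNT3, the largest part of each, had 7095 in AL44 and 6865 in AL49, its lowest pig. The 6 slow fibre markers summed to 1078 in AL44, below AL63 alone, and to 447 to 1449 in the other 9. AL44 also had the fewest reads on genes. Without AL44, 14 of the 21 members were positive and their median was 0.07, whereas without AL46 only 5 were positive and the median was -0.21. The SD of the log2 values was wider in AL than in BI in 18 of the 21 members, beside 64.4% of all genes, and without AL44 in 15 of the 21, beside 54.3%. What sets AL44 apart was not tested.

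Markers of other cell types were summed in the same way, and their part in the members' values was not tested. The summed markers of adipocytes were 90.6 to 173 in AL and 81.3 to 189 in BI over 8 genes, with ADIPOQ at 3 reads in all pigs together. The largest part was PLIN4, with means of 92.7 in AL and 86.4 in BI. Those of fibroblasts were 18.9 to 148 in AL and 29.1 to 72.9 in BI over 8 genes, highest in AL46. The 5 endothelial markers summed to 4.32 to 16.7 in AL and 2.20 to 13.2 in BI, the 3 of red blood cells to 3.39 to 10.2 and 7.39 to 17.3, and the 8 of immune cells to 354 to 493 and 331 to 485, with CD3E and LYZ at 0 reads in all pigs. The largest parts of the immune sum were CSF1R, with means of 265 in AL and 288 in BI, and CD74, with 105 and 98.3. The 8 smooth muscle markers, which include DES and LMOD1, summed to 819 to 1917 in AL and 1399 to 2621 in BI, with ACTA2, TAGLN and CNN1 each at a mean under 10 in both breeds.

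A list of 50 further genes of the sarcomere and the costamere, the anchor between the Z-disc and the membrane, had 38 members in the table and 11 tested, of which 10 were positive and 1 negative (median 0.08) and 0 were called. The 3 with the lowest unadjusted p were TMOD4, the tropomodulin of skeletal muscle, which caps the pointed end of the thin filament, TLN1, talin of the costamere, and BAG3, a chaperone partner at the Z-disc. TMOD4 had 631 ± 155 (SD, n = 5) for the AL pigs and 466 ± 43.4 (SD, n = 5) for the BI pigs and a log2 fold change of 0.41 (limma adjusted p = 0.547). TLN1 had 0.27 (limma adjusted p = 0.849) and BAG3 0.21 (limma adjusted p = 0.854). ACTN3, the α-actinin of fast fibres, had close means, at 1399 in AL and 1389.5 in BI.

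Of the 42 members with a position, 21 had a gene on the opposite strand that overlapped them or lay within 5 kb. Outside the group, 11 such genes had values and 12 had none here, among them lncRNA genes that overlap 238 exonic bases of FLNC, 137 of MYOM2 and 139 of MYOT. Among them, the means over the 10 pigs were 1188 for FASTKD1 (1771 bp from KLHL41), 196 for ZNF106 (2782 bp from CAPN3), 94.1 for MPV17 (2108 bp from TRIM54), 82.9 for PGAP3 (3845 bp from TCAP) and 36.8 for SLFN11 (996 bp from UNC45B). RIF1, near NEB, had 11.02. SEC24D, across MYOZ2, had a mean of 2.85, from 0 in BI34 to 6.47 in AL49. NLE1, near UNC45B, had a mean of 0.467, under the 3-read limit. ACTA1, TPM1, DES and XIRP1 had no such neighbour, which does not show that their reads came from the mRNA.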

How the data were processed

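The authors trimmed stranded paired-end reads with Trim Galore 0.5.0, mapped them to Sscrofa11.1 with HISAT2 2.1.0, converted files with SAMtools 1.9, counted with HTSeq 0.11.1 and deposited counts normalised by DESeq2, a signal per gene and pig. The deposited table also holds their own comparison (mean, log2 fold change, its standard error and test statistic as a score, p-value and adjusted p-value), which was not used. Every value was a whole multiple of the smallest of its pig (tolerance 0.01), which gave back the reads.

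Because the values are normalised, limma 3.58.1 with an intensity trend was run on log2(value + 1), AL against BI, without covariates, and called at an adjusted p under 0.05. DESeq2 1.42.0, edgeR 4.0.16 and voom on the recovered reads, pseudocounts of 0.1 and 10, other minimums and scalings (TMM, or without the 10 highest genes) and leaving out each pig were alternatives. The limma, voom, DESeq2 and edgeR fits were tested on simulated data, and the other routines were not. Within a breed no 2 pigs agreed within counting noise. Precision is limited by 2298045 to 3343194 reads per pig, and replicates are separate animals. No batch is labelled. One overlapping pair of genes and one upstream sequence are not reported here.

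Values of every pig are given for members with an unadjusted p under 0.05 or no overlap, the 2 highest of each role, fibre-type members, MYBPH with ADORA1, and members with an outlying pig. Members and lists, including markers of muscle, fibre types, fat, fibroblasts, smooth muscle, endothelium, immune and red blood cells, were chosen with earlier results of these data known. Positions and sequences came from the RefSeq annotation release 106 of Sscrofa11.1, matched by symbol. Correlations used 100000 permutations.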

Additional observations from a re-analysis of the deposited data

Results flagged for a closer look

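In the groups of 5 pigs, a pig was picked out where its gap to the nearest of the other 4 took more than 0.71 of the range of its breed (Dixon's ratio). For normally distributed values, chance alone picks out about 1 group in 20. Here 5 of the 76 groups, 2 for each of the 38 members in the table, were picked out. The ratio was taken on normalised counts, where a long upper tail raises it, and not on the log2 scale of the tests. In all 5 groups the pig picked out was the highest, so these pigs are not shown to be outliers on the log2 scale. Of these, 3 concerned AL46. Its normalised count was 295 for MYBPH, where the other AL pigs had 64.0 to 114, 310.5 for TCAP, where they had 158 to 202, and 320 for XIRP1, where they had 62.3 to 112. For KLHL40, AL49 had 71.2 and the other AL pigs 38.2 to 45.5. For ACTC1, AL52 had 1.78, which is 2 reads, and the other AL pigs 0.93 to 1.13.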

How the results depend on the processing

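The number of members called was 0 under all 20 alternatives, and their median log2 fold change moved by less than the SD between pigs (0.372) in each, although its sign turned with DESeq2 (0.011, and 0.0063 on the larger set of genes) and edgeR (0.011). With 1 pig left out at a time, the median ran from -0.21 to 0.067, and the count of members without overlap from 0 to 1. Leaving out 1 pig shifts a breed mean by only a part of that pig's distance from it. An SD between pigs is therefore a limit that was hard to exceed, and staying within it says little. For single members, 387 of 420 repeated fold changes kept their sign. With DESeq2, on either set of genes, and with edgeR, the signs of MYBPC2 (0.011 in each), MYOZ3 (0.020 in each) and PDLIM3 (0.032 in each) turned. The DESeq2 fit on the larger set of genes was chosen after seeing the data. The other turned signs came from leaving out 1 pig. These ranges were -0.15 to 0.039 for NEB, -0.034 to 0.32 for MYBPC1, -0.15 to 0.14 for MYBPC2, -0.098 to 0.45 for MYBPH, -0.076 to 0.33 for ADORA1, -0.31 to 0.067 for MYOM2, -0.15 to 0.23 for ACTN2, -0.21 to 0.041 for MYOZ1, -0.32 to 0.065 for MYOZ3, -0.089 to 0.19 for NRAP and -0.25 to 0.23 for PDLIM3. The causes were not tested. Of the 21 tested members, 10, TCAP and XIRP1 among them, kept their sign throughout. No paired analysis was possible because the breeds share no animal numbers. Pseudocounts and tests do not enter the count of overlaps, so it has no value under them. Depth limits the 17 members below the minimum, several of them at a few reads per pig.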

Other observations

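Of the genes beside the members, MPV17 and SLFN11 had the lowest p-values between the breeds. MPV17, which codes for a protein of the inner mitochondrial membrane and lies 2108 bp from TRIM54 on the opposite strand, had normalised counts of 83.1, 244, 71.2, 157 and 119.9 in the AL pigs and 64.2, 39.7, 58.6, 48.1 and 56 in the BI pigs. All 5 AL pigs were above all 5 BI pigs, and 1.45% of the 1513 genes tested had no overlap in either direction. The exact two-sided permutation test gave p = 0.00794, the smallest it can give and the value of every gene without overlap. Its log2 fold change was 1.2 (limma adjusted p = 0.199), and the adjusted p over the alternatives ran from 0.00792 with DESeq2 on the larger set of genes to 0.404 without BI42. DESeq2 on that larger set called 1.44% of its 3807 genes. TRIM54 itself had 46.7 ± 13.8 (SD, n = 5) for the AL pigs and 46.4 ± 7.44 (SD, n = 5) for the BI pigs. SLFN11, 996 bp from UNC45B on the opposite strand, had 25.5, 77.2, 37.8, 51.6 and 71.3 in the AL pigs and 28, 17.6, 17.2, 18 and 24.3 in the BI pigs, with 1 AL pig inside the BI range. Over the genes of the lower minimum its log2 fold change was 1.2 (limma adjusted p = 0.169; 0.0153 to 0.169 over the alternatives, the lowest with DESeq2 on those genes). Both were singled out after their values were seen.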
